A study of Rattus norvegicus with 4 samples.

Results

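The tumour necrosis factor (TNF) superfamily was followed in messenger RNA of rat joint lining (synovium) with osteoarthritis. Its members were taken by name: every row of the deposited rat gene table whose symbol begins with Tnfsf or Tnfrsf and a number, together with Tnf, Lta, Ltb, Ltbr, Fas, Faslg, Cd27, Cd40 and Cd40lg. This gave 38 of 17899 rows, 16 ligands and 22 receptors. Of these, 30 (12 ligands and 18 receptors) reached 1 TPM in at least 2 libraries and were tested. TPM is a length-normalised share of a library's transcripts, so levels can be set side by side between genes, but the read depth behind them is unknown and a listed 0 has no known limit. There were 4 bulk libraries: AdMSC 1 from synovium injected with human AdMSCs, SyMSC 1 from synovium injected with human SyMSCs, and PBS 1 and PBS 2 from synovium injected with the salt buffer PBS. AdMSC and SyMSC are the labels' own short forms for human cells, and they are not spelled out there. All rats shared the disease label, and neither strain, age nor sex was given. Tissue was collected on the day after the cell injection, and titles set PBS 1 beside AdMSC 1 (the word Ad) and PBS 2 beside SyMSC 1 (the word Sy). The injected group therefore joins 1 library of each cell source (n = 2), and the labels do not state that libraries were separate animals, so p-values measure only the spread between these libraries, which may be technical. Whether reads of the injected human cells were kept apart from rat reads is not given in the sources used here.

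Ligands of this superfamily are mostly trimers on the cell surface, many of which can be cut off to act at a distance. Their receptors recruit TRAF adaptor proteins, which switch on NF-kB, and those with a death domain can also start cell death. In the joint the family is best known for TNF, the target of antibody therapy in inflammatory arthritis, and for RANK ligand, which drives formation of bone-resorbing osteoclasts and is held back by the decoy receptor osteoprotegerin.

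Lymphotoxin beta, the T cell costimulator GITR, RANK ligand and its receptor RANK were among the transcripts that rose after cell injection. For GITR and RANK ligand the filter fixed the direction, as set out below. TRAIL showed the largest fall, and the broadly expressed TNF receptor Tnfrsf1a was the most abundant member in each of the 4 libraries. With limma, 14 of the 30 tested members were called higher (8 ligands and 6 receptors) at an adjusted p under 0.05, 2 were called lower (1 ligand and 1 receptor) and 14 were not called. Among all 13371 genes tested, 48.4% were called, 23.7% higher and 24.7% lower. Both injected libraries lay above both PBS libraries for 15 members and below them for 8, beside 39.5% and 39.4% of all genes tested. The median log2 change was 0.40 for the 30 members and 0.0009 for all genes tested. These counts and the median of the members are descriptive. The reason is that 6 members (Lta, Tnfsf8, Tnfsf11, Tnfsf14, Tnfrsf9 and Tnfrsf18) passed the filter through the injected libraries alone. They had to lie higher there, which also lifts the median. Of the other 24, 8 were called higher and 2 lower, beside 23.6% and 22.2% of all genes that reached 1 TPM in both groups. Summed over the 16 ligands, the level was 367 and 360.4 TPM in AdMSC 1 and SyMSC 1, and 238 and 249.8 TPM in PBS 1 and PBS 2. Over the 22 receptors it was 616, 631, 557 and 549.7 TPM in the same order. Both injected libraries were above both PBS libraries for each sum. A few genes weigh most in these sums, which therefore do not show a rise across the family. By group means, the largest rises in TPM among ligands were Tnfsf13 (159.0 against 94.0) and Ltb (50.9 against 2.7). Among receptors they were Tnfrsf1b (77.2 against 20.2) and Tnfrsf21 (36.0 against 10.5), while 8 tested members lay below PBS in both injected libraries. In bulk tissue, fewer cells of a type and less RNA per cell cannot be told apart.

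**Figure D1:**
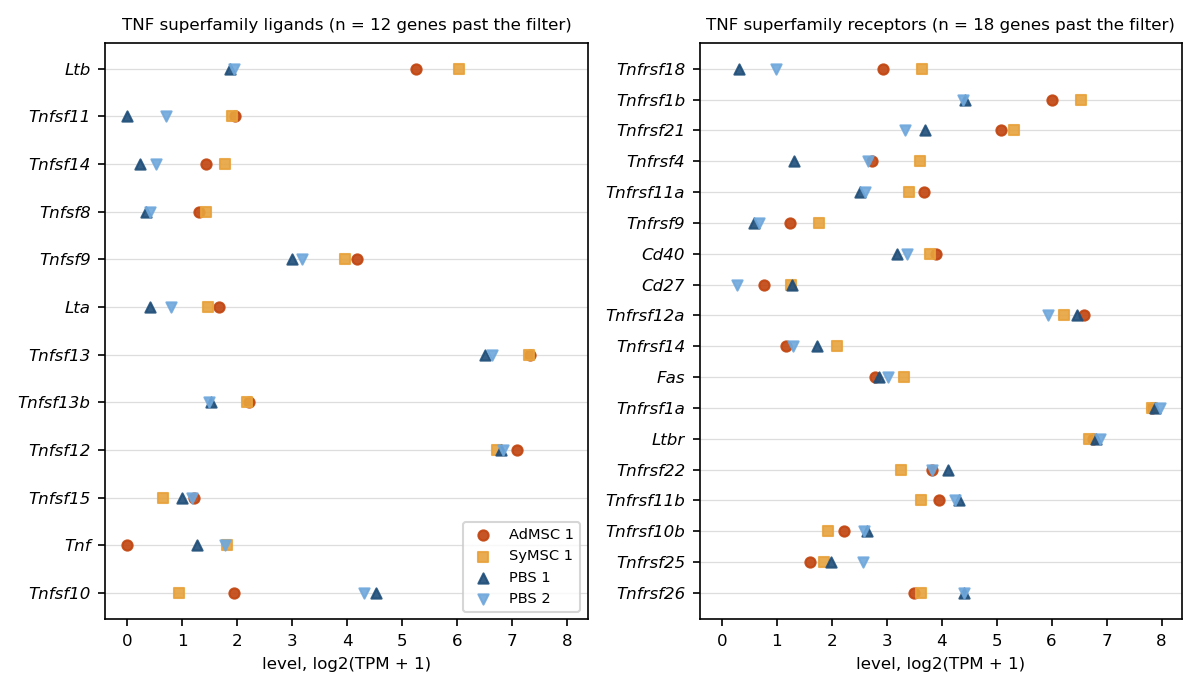
Levels of the 30 tested members as log2(TPM + 1) (horizontal axis), ligands on the left and receptors on the right, with 1 point per library and genes ordered by their change. Tnfrsf1a is the most abundant member in all 4 libraries, the injected points of Ltb and Tnfrsf1b lie well to the right of the PBS points, and those of Tnfsf10 to the left.

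Lymphotoxin beta (Ltb, gene ID 361795), which anchors lymphotoxin alpha at the cell surface and signals through the lymphotoxin beta receptor, showed the largest change of the family. Its level was 37.1 TPM in AdMSC 1 and 64.6 in SyMSC 1, against 2.63 in PBS 1 and 2.84 in PBS 2, an 18.6-fold difference between the group means. The injected libraries lay far above both PBS libraries, which were close to each other (log2 change 3.74, SE 0.27, limma adjusted p = 0.00045). Its partner Lta (gene ID 25008) was scarce, with 2.16 and 1.77 TPM in AdMSC 1 and SyMSC 1 and 0.33 and 0.74 TPM in PBS 1 and PBS 2. Lta passed the filter through the injected libraries alone and so had to lie higher there. The groups did not overlap and Lta was called higher (0.96, SE 0.21, adjusted p = 0.0122), although not without AdMSC 1 (0.86, adjusted p = 0.0669). Tnf (gene ID 24835), which lies between Lta and Ltb in the genome, was listed at 0 in AdMSC 1 and stood at 2.52 TPM in SyMSC 1, 1.40 in PBS 1 and 2.41 in PBS 2. Its highest and lowest values were therefore both injected libraries, and it was not called (-0.61, SE 0.69, adjusted p = 0.513). It was called lower without SyMSC 1 (-1.52, adjusted p = 0.0209), where the injected group is a single value of 0. The lymphotoxin beta receptor gene Ltbr (gene ID 297604) was abundant, with 106.8 and 101.3 TPM in AdMSC 1 and SyMSC 1 and 111 and 117 TPM in PBS 1 and PBS 2. The injected libraries were slightly below PBS and the gene was not called (-0.14, SE 0.12, adjusted p = 0.383).

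The 250 bases before the annotated start of these 3 neighbours are shown because Ltb lies so far from Lta and Tnf in level and change. They are RefSeq's, on GRCr8, whereas the submitters' processing notes name Rnor_6.0. Capitals mark matches to the motifs searched on both strands: GGGACTTTC, the first bases of the classical kappa-B site that NF-kB binds, its looser form GGGANNTTC, which contains the first, and the TATA box TATAAA. The stretches are chr20:3623277-3623526 on the plus strand for Lta, chr20:3626435-3626684 on the plus strand for Tnf and chr20:3634055-3634304 on the minus strand for Ltb, each written along its gene, 5′ to 3′.
Lta: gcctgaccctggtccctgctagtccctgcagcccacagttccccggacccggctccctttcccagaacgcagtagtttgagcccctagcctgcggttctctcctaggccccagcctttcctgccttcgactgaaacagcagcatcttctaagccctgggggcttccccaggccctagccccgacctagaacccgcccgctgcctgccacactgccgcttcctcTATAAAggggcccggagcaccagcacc
Tnf: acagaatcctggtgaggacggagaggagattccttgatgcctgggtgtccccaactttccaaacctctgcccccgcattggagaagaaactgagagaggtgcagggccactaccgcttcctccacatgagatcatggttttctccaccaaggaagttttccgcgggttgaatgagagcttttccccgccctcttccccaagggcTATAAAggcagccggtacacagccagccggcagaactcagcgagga
Ltb: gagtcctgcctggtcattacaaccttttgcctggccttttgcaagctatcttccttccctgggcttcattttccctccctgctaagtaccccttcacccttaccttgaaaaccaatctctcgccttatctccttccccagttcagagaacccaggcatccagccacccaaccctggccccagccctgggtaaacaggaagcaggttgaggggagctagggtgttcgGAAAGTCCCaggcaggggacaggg
The Ltb window holds GAAAGTCCC, the first motif read on the opposite strand, at position -24 from the start, and no TATAAA. Lta and Tnf hold TATAAA at positions -27 and -46, and neither of the kappa-B forms searched. Those forms fix A as the base after GGG, so a kappa-B site with another base there goes unmarked. The search therefore cannot say that Ltb alone of the 3 has a kappa-B site. Shares were counted in windows that run on to 50 bases after the start: the first motif occurs in 0.326% of the 33469 windows in the table, the looser form in 4.05% and TATAAA in 14.2%. Of the 28 members with a window, Ltb had the first motif, Ltb and Tnfsf18 the looser form, and 7 had TATAAA (Lta, Tnf, Faslg, Tnfrsf22, Tnfsf11, Tnfsf15 and Tnfsf18). A match describes letters in this window only, and a missing match says only that the letters are not there.

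Of the receptors for TNF itself, the leukocyte form rose and the broadly expressed form was not called. Tnfrsf1a (gene ID 25625), the death domain receptor found on most cells, stood at 225 and 226 TPM in AdMSC 1 and SyMSC 1 and at 234 and 250.4 TPM in PBS 1 and PBS 2. The injected libraries lay slightly below PBS and it was not called (-0.10, SE 0.12, adjusted p = 0.506). Tnfrsf1b (gene ID 156767), the TNF receptor carried mainly by leukocytes and endothelium, stood at 63.2 TPM in AdMSC 1 and 91.2 in SyMSC 1, against 20.4 in PBS 1 and 19.9 in PBS 2. It rose 3.83-fold between group means (log2 change 1.86, SE 0.19, adjusted p = 0.000939). The ratio of Tnfrsf1b to Tnfrsf1a was 0.281 and 0.404 in AdMSC 1 and SyMSC 1 and 0.0871 and 0.0795 in PBS 1 and PBS 2, so the injected libraries did not overlap with PBS. An exact permutation test (two-sided, 2 against 2 libraries) gave p = 0.333, the smallest value this design allows.

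RANK ligand and its receptor were both higher after cell injection, and the decoy was not called. Tnfsf11 (gene ID 117516), which encodes RANK ligand, stood at 2.89 TPM in AdMSC 1 and 2.76 in SyMSC 1, was listed at 0 in PBS 1 and stood at 0.62 in PBS 2. Tnfsf11 passed the filter through the injected libraries alone and so had to lie higher there. It was called higher (log2 change 1.59, SE 0.26, adjusted p = 0.00436), but the size of the change depends on the added 1. With 0.1 in its place the log2 change was 3.45. Tnfrsf11a (gene ID 498206), which encodes RANK, went from 4.73 and 5.06 TPM in PBS 1 and PBS 2 to 11.8 in AdMSC 1 and 9.61 in SyMSC 1, a 2.19-fold rise between group means (0.98, SE 0.17, adjusted p = 0.00512). Tnfrsf11b (gene ID 25341), which encodes the decoy osteoprotegerin, was 14.6 and 11.4 TPM in AdMSC 1 and SyMSC 1 and 18.8 and 17.9 TPM in PBS 1 and PBS 2. Both injected libraries lay below both PBS libraries, and the test just missed the threshold (-0.48, SE 0.16, adjusted p = 0.0504). The decoy was called lower with median-ratio scaling (-0.48, adjusted p = 0.0362), with upper-quartile scaling (-0.56, adjusted p = 0.0248), with the title word as a block (adjusted p = 0.0466) and without AdMSC 1 (-0.64, adjusted p = 0.0307). The ratio of Tnfsf11 to Tnfrsf11b was 0.198 and 0.243 in AdMSC 1 and SyMSC 1. With PBS it was 0.0347 in PBS 2 and 0 in PBS 1, where the ligand was listed at 0. All ratios were below 1, so the decoy's transcripts outnumbered the ligand's in every library, and the same exact permutation test gave p = 0.333.

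**Figure D2:**
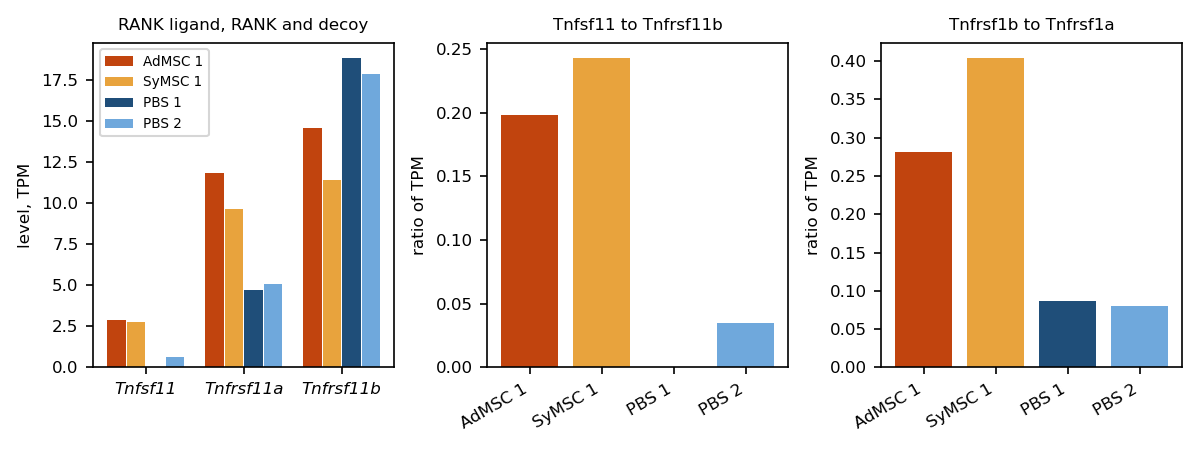
Left, levels of RANK ligand (Tnfsf11), RANK (Tnfrsf11a) and the decoy osteoprotegerin (Tnfrsf11b) in TPM, 1 bar per library; middle and right, the ratio of TPM of Tnfsf11 to Tnfrsf11b and of Tnfrsf1b to Tnfrsf1a in each library. Both ratios are higher in AdMSC 1 and SyMSC 1 than in either PBS library, and the empty place in PBS 1 is a listed 0.

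Receptors that costimulate T cells were higher or not called. GITR (Tnfrsf18, gene ID 500598), carried by activated and regulatory T cells, stood at 6.68 TPM in AdMSC 1 and 11.5 in SyMSC 1, against 0.25 in PBS 1 and 0.98 in PBS 2. The groups were far apart (log2 change 2.64, SE 0.33, adjusted p = 0.00187). GITR passed the filter through the injected libraries alone, so it had to lie higher there. OX40 (Tnfrsf4, gene ID 25572), its neighbour in the genome, was 5.66 and 11.2 TPM in AdMSC 1 and SyMSC 1 and 1.48 and 5.32 TPM in PBS 1 and PBS 2. Here the PBS libraries themselves differed widely, AdMSC 1 was close to PBS 2, and the gene was not called (1.19, SE 0.57, adjusted p = 0.159). Without PBS 2 it was called higher (1.86, adjusted p = 0.0214), as it was with the title word as a block (adjusted p = 0.0126). Tnfrsf9 (gene ID 500590), a further costimulatory receptor, was 1.38, 2.42, 0.50 and 0.59 TPM in AdMSC 1, SyMSC 1, PBS 1 and PBS 2. Like GITR it passed the filter through the injected libraries alone, and it was called higher (0.89, SE 0.23, adjusted p = 0.0212). That call was lost without SyMSC 1 (0.62, adjusted p = 0.12) or PBS 1 (0.84, adjusted p = 0.0564). Its ligand gene Tnfsf9 (gene ID 353218), expressed by antigen-presenting cells, went from 6.98 and 8.09 TPM in PBS 1 and PBS 2 to 17.2 in AdMSC 1 and 14.6 in SyMSC 1 (0.99, SE 0.16, adjusted p = 0.00399). Cd27 (gene ID 500318), another receptor of T cells, was near the filter at 0.71, 1.40, 1.42 and 0.21 TPM, with overlapping groups, and was not called (0.24, SE 0.37, adjusted p = 0.616).

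Cd40 (gene ID 171369), the receptor through which T cells license antigen-presenting cells, was 13.9 and 12.8 TPM in AdMSC 1 and SyMSC 1 and 8.10 and 9.39 TPM in PBS 1 and PBS 2. It was called higher (log2 change 0.56, SE 0.15, adjusted p = 0.0243), and the call was lost without AdMSC 1 (adjusted p = 0.0939), SyMSC 1 (adjusted p = 0.0618) or PBS 1 (adjusted p = 0.121). The ligand gene Tnfsf8 (gene ID 683163), made by activated T cells, was 1.47 and 1.71 TPM in AdMSC 1 and SyMSC 1 and 0.26 and 0.33 in PBS 1 and PBS 2 (0.999, SE 0.18, adjusted p = 0.00562). LIGHT (Tnfsf14, gene ID 301133), a ligand of both Ltbr and Tnfrsf14, was 1.71 and 2.43 TPM in the same injected libraries and 0.18 and 0.43 with PBS (1.23, SE 0.21, adjusted p = 0.00509). These low-level ligands were called higher with groups that did not overlap, but all their values lie within a few TPM of 0. Tnfsf8 and Tnfsf14 passed the filter through the injected libraries alone, so they had to lie higher there. With an added 0.1 in place of 1 the log2 changes became 2.10 for Tnfsf8, 2.47 for Tnfsf14, 1.77 for Lta and 1.59 for Tnfrsf9. Tnfrsf14 (gene ID 366518), the other receptor of LIGHT, was 1.25, 3.26, 2.32 and 1.47 TPM, with the lowest and highest values both in injected libraries, and was not called (0.11, SE 0.34, adjusted p = 0.804).

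The ligands that sustain B cells and plasma cells were both higher. APRIL (Tnfsf13, gene ID 287437) was abundant, with 159.8 and 158 TPM in AdMSC 1 and SyMSC 1 and 89.5 and 98.5 TPM in PBS 1 and PBS 2, a 1.69-fold rise between group means (log2 change 0.75, SE 0.12, adjusted p = 0.00403). BAFF (Tnfsf13b, gene ID 498666) was much lower, at 3.64, 3.51, 1.88 and 1.82 TPM (0.68, SE 0.18, adjusted p = 0.0205). Its call was lost without any 1 library, with adjusted p between 0.0663 (without PBS 1) and 0.0838 (without AdMSC 1). Of the receptors for these ligands, Tnfrsf13b and Tnfrsf13c were below the filter, with 0.63 TPM or less in every library. Tnfrsf17, a further receptor, and Jchain, a listed marker of plasma cells, had no row and could not be assessed. B cell markers were low as well: the 5 of 6 found summed to 7.23 and 23.3 TPM in AdMSC 1 and SyMSC 1 and 11.7 and 3.18 TPM in PBS 1 and PBS 2, with 0 called, or 1 called higher without AdMSC 1 (Ms4a1) or PBS 1 (Cd79a), and Pax5 listed at 0 in PBS 1.

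Among ligands and receptors of cell death, TRAIL stood out. Tnfsf10 (gene ID 246775), which encodes TRAIL, was 22.0 TPM in PBS 1 and 18.9 in PBS 2 but 2.83 in AdMSC 1 and 0.93 in SyMSC 1, a level 10.9-fold lower by group means. The fall (log2 change -2.97, SE 0.34, adjusted p = 0.00179) was called under all 10 alternatives run. Its death receptor gene Tnfrsf10b (gene ID 364420) was 3.70 and 2.83 TPM in AdMSC 1 and SyMSC 1 and 5.24 and 4.98 in PBS 1 and PBS 2. Injected libraries lay below PBS, without a call (-0.53, SE 0.19, adjusted p = 0.061). It was called lower with median-ratio scaling (adjusted p = 0.0476), with upper-quartile scaling (adjusted p = 0.0353) and without the trend and robust options (adjusted p = 0.0438). Tnfrsf26 (gene ID 361685) went from 20.2 TPM in each PBS library to 10.3 in AdMSC 1 and 11.4 in SyMSC 1 (-0.84, SE 0.14, adjusted p = 0.00389). Tnfrsf22 (gene ID 686008), a neighbour of Tnfrsf26 that is a TRAIL decoy in mice, was 13.2, 8.61, 16.3 and 13.2 TPM and was not called (-0.43, SE 0.22, adjusted p = 0.158), although it was called lower without AdMSC 1 (-0.71, adjusted p = 0.0419). These neighbours belong to a cluster of similar genes, so reads may have been divided between them and their values are uncertain.

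Fas (gene ID 246097), the classical death receptor, was 5.88 and 8.94 TPM in AdMSC 1 and SyMSC 1 and 6.22 and 7.11 TPM in PBS 1 and PBS 2. The injected libraries held both the lowest and the highest value, and Fas was not called (log2 change 0.11, SE 0.22, adjusted p = 0.696). Tnfrsf21 (gene ID 316256), a receptor with a death domain and no settled ligand in this family, was called. It rose 3.42-fold between group means, from 12.0 and 9.07 TPM in PBS 1 and PBS 2 to 33.01 in AdMSC 1 and 39.02 in SyMSC 1 (1.69, SE 0.18, adjusted p = 0.000985). Tnfrsf25 (gene ID 500592), the death domain receptor for TL1A, was 2.04, 2.64, 2.98 and 4.97 TPM, lower in both injected libraries but not called (-0.55, SE 0.25, adjusted p = 0.116). It was called lower without PBS 1 (-0.84, adjusted p = 0.0412). The gene of TL1A itself, Tnfsf15 (gene ID 252878), lay near the filter at 1.32, 0.57, 0.99 and 1.26 TPM and was not called (-0.15, SE 0.24, adjusted p = 0.628).

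TWEAK and its receptor, an axis of tissue repair, were abundant and not called. Tnfsf12 (gene ID 360548), which encodes TWEAK, was 134 and 104.5 TPM in AdMSC 1 and SyMSC 1 and 110.4 and 113 TPM in PBS 1 and PBS 2 (log2 change 0.08, SE 0.16, adjusted p = 0.681). Tnfrsf12a (gene ID 302965), which encodes its receptor, was 95.8, 73.9, 87.0 and 60.4 TPM in the same order (0.21, SE 0.22, adjusted p = 0.45). In both genes the groups overlapped.

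**Figure D3:**
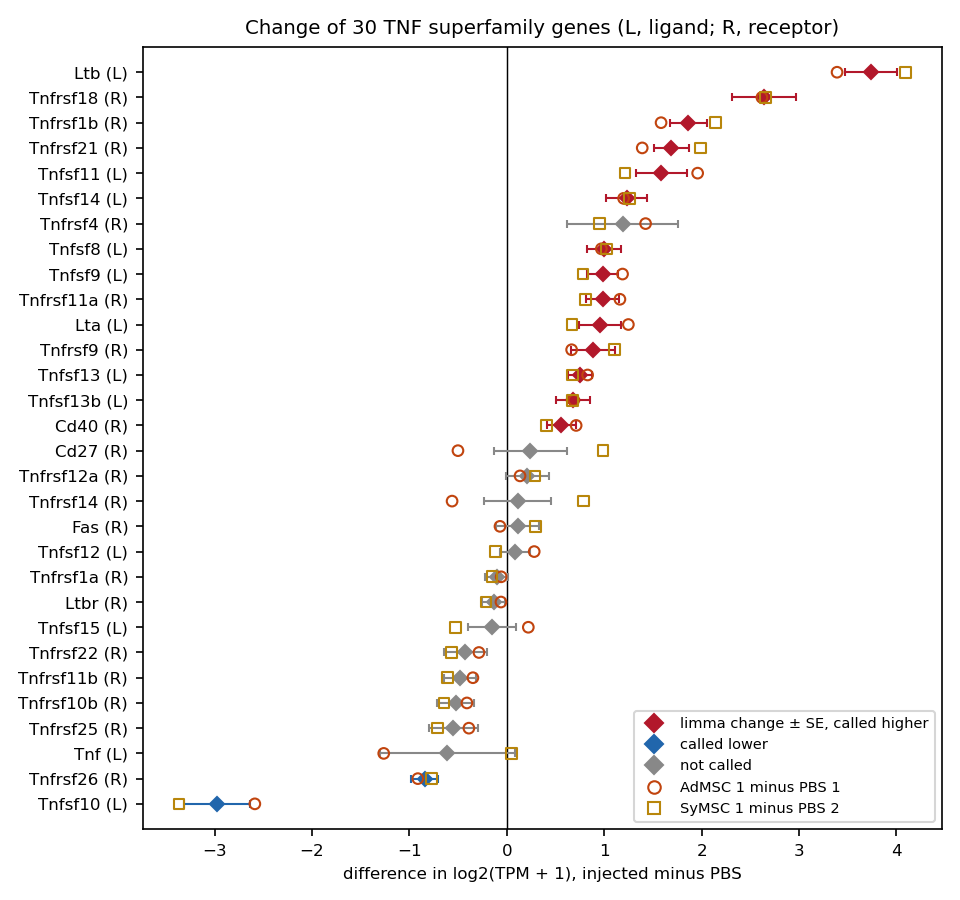
Differences in log2(TPM + 1) of the 30 tested members, ordered by size: diamonds are the limma estimate for injected minus PBS with its standard error, coloured by call; open circles are AdMSC 1 minus PBS 1 and open squares SyMSC 1 minus PBS 2. Ltb stands at 3.74 and Tnfsf10 at -2.97, and the circle and square lie on opposite sides of 0 for Cd27, Fas, Tnf, Tnfrsf14, Tnfsf12 and Tnfsf15.

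Members below the filter were ligands Cd40lg, Faslg, Tnfsf4 and Tnfsf18 and receptors Tnfrsf8, Tnfrsf13b, Tnfrsf13c and Tnfrsf19. Their highest value in any library was 1.71 TPM, for Tnfrsf19 in PBS 1, where the other libraries held 0.14 to 0.23 TPM. Faslg, the ligand of Fas on cytotoxic T and NK cells, was 0.44 and 0.53 TPM in AdMSC 1 and SyMSC 1, was 0.07 TPM in PBS 2 and was listed at 0 in PBS 1. Cd40lg, the ligand of Cd40, was 0.95, 0.94, 0.69 and 0.30 TPM in AdMSC 1, SyMSC 1, PBS 1 and PBS 2. Tnfsf4, the ligand of OX40, was listed at 0 in both PBS libraries and at 0.01 and 0.15 TPM in AdMSC 1 and SyMSC 1. At an unknown depth, such values cannot be told from 0 with any stated confidence.

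Each cell source was also set against the PBS library of its title word, with 1 library on each side and so no test. Counted were genes with a ratio of TPM + 1 of 2 or more and a higher value of 5 TPM or more. Between AdMSC 1 and PBS 1, 7 members were past that ratio upwards (Ltb, Tnfrsf18, Tnfrsf1b, Tnfrsf4, Tnfrsf21, Tnfsf9 and Tnfrsf11a) and 1 downwards (Tnfsf10), beside 9.0% and 9.89% of all genes tested. Between SyMSC 1 and PBS 2, 4 were past it upwards (Ltb, Tnfrsf18, Tnfrsf1b and Tnfrsf21) and again Tnfsf10 downwards, beside 10.4% and 12.2%. Tnfrsf18 passed the filter through the injected libraries alone and so had to lie higher in both comparisons. On the log2 scale Ltb differed by 3.39 in the Ad libraries and 4.10 in the Sy libraries, Tnfrsf1b by 1.58 and 2.14, and Tnfsf10 by -2.59 and -3.36. Between SyMSC 1 and AdMSC 1 0 members were past the ratio in either direction, beside 1.10% of tested genes upwards and 0.546% downwards, while 1 (Tnfrsf4) was past it between PBS 2 and PBS 1 (0.725% upwards and 0.972% downwards). The largest differences of SyMSC 1 from AdMSC 1 among members that reached 5 TPM in either of them were 0.88 for Tnfrsf4 and 0.79 for Ltb, against 1.35 and 0.08 between the PBS libraries. With 1 library per source, a difference between cell sources cannot be told apart from one between libraries.

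Many members sit side by side in the genome, which the choice by name did not use. On GRCr8, 16 of the 38 formed 7 runs of neighbouring protein-coding genes: Lta, Tnf and Ltb; Tnfsf4, Tnfsf18 and Faslg; Tnfsf13 and Tnfsf12; Tnfsf15 and Tnfsf8; Tnfrsf26 and Tnfrsf22; Tnfrsf1b and Tnfrsf8; and Tnfrsf4 and Tnfrsf18. The changes of neighbours are set side by side here, and the difference between neighbours was not tested. Tnfsf13 rose by 0.75 on the log2 scale beside 0.08 for Tnfsf12, and Tnfsf8 rose by 0.999 beside -0.15 for Tnfsf15. Tnfrsf1b rose by 1.86 beside an untested Tnfrsf8 of 0.37 to 1.14 TPM, and Ltb by 3.74 beside 0.96 for Lta and -0.61 for Tnf. In other runs the signs were alike: Tnfrsf18 (2.64) with Tnfrsf4 (1.19, not called), and Tnfrsf26 (-0.84) with Tnfrsf22 (-0.43, not called). Of the genes named here, Tnfsf8, Lta and Tnfrsf18 passed the filter through the injected libraries alone, so their direction was fixed. Tnfsf4, Tnfsf18 and Faslg were untested, each with both injected libraries above both PBS libraries, as were 39.5% of all genes tested. Their values were 0.73 TPM or less in every library, too near 0 to be read as a shared direction. The library protocol marks strand with dUTP, but the use of strand in counting is not given in the sources used here, so reads that run from 1 neighbour into the next cannot be assigned with certainty.

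Lists of genes around these receptors were also counted, with the same limma fit and the same background of 23.7% higher and 24.7% lower. Of 9 adaptors, 2 rose, 3 fell and 4 were not called. Traf6, used by RANK and Cd40, went from 1.46 and 1.44 TPM in PBS 1 and PBS 2 to 4.14 and 5.50 TPM in AdMSC 1 and SyMSC 1 (log2 change 1.24, SE 0.20, adjusted p = 0.00391), while Traf5 (-1.01) and Traf4 (-0.76) fell. The other rise, Tank, was lost without SyMSC 1 (adjusted p = 0.0727) or PBS 2 (adjusted p = 0.106), and the other fall, Traf1, without PBS 2 (adjusted p = 0.0507). Of 10 ubiquitin enzymes and NF-kB brakes, 5 rose, 1 fell and 4 were not called. Among the rises, Birc2 (0.59) lost its call without SyMSC 1 (0.45), PBS 1 (0.64) or PBS 2 (0.53). Birc3, a ubiquitin ligase of the TNF receptor complex, stood at 19.8 and 33.4 TPM against 7.24 and 6.08 (1.81), beside the deubiquitinase genes Tnfaip3 (1.07) and Cyld (1.02). The 1 fall, Rbck1 (-0.46), was lost without AdMSC 1 (adjusted p = 0.0503), PBS 1 (adjusted p = 0.122) or PBS 2 (adjusted p = 0.0865). Only part of the next list belongs to the alternative NF-kB pathway, which Ltbr, Cd40 and RANK use. That pathway's subunit gene Relb was not called (0.24, adjusted p = 0.289), with overlapping groups. Of the 10 listed kinases, kinase adaptors and alternative pathway genes, 6 were not called and 4 rose. They included the kinase gene Map3k14, at 10.3 and 10.5 TPM against 4.62 and 5.10 (0.96), the adaptor gene Tab2 (0.83) and the kinase gene Chuk (0.68), which was lost without AdMSC 1 (adjusted p = 0.0537) or PBS 2 (adjusted p = 0.0561). The fourth, Nfkb2 (0.67), was lost with upper-quartile scaling (adjusted p = 0.0502), no filter (0.0585) and the title word as a block (0.0553), and without SyMSC 1 (0.105) or PBS 2 (0.118). Without PBS 2 the count of rises in this list was 2 of 10.

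Genes of the death machinery rose in 4 of 8 cases and were not called in 4. Among the rises, Ripk1 (log2 change 0.63) lost its call without PBS 1 (0.58). Ripk3, the kinase of necroptosis, stood at 46.9 and 53.4 TPM in AdMSC 1 and SyMSC 1 against 23.9 and 16.6 in PBS 1 and PBS 2 (log2 change 1.29, SE 0.19, adjusted p = 0.00308), and Bid, which links death receptors to mitochondria, rose by 1.22. Casp8, the initiating caspase, was called (0.79, adjusted p = 0.0222) but not with the title word as a block (adjusted p = 0.0508), with no filter on low values (adjusted p = 0.0505), or without SyMSC 1 (adjusted p = 0.11) or PBS 2 (adjusted p = 0.0881). Of 5 genes that cut or carry the ligands, 3 rose, 1 fell and 1 was not called. Among the rises, Adam10 (0.68) lost its call without PBS 1 (0.56). Furin, the protease that processes APRIL and BAFF, stood at 97.6 and 94.97 TPM against 33.2 and 31.7 (1.54, SE 0.12, adjusted p = 0.000456). Rhbdf2, which brings the TNF-cutting protease to the surface of immune cells, rose (1.36) while the related Rhbdf1 fell (-0.86), and the protease gene Adam17 itself was not called (0.14, adjusted p = 0.351).

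Osteoclast genes downstream of RANK were called in both directions. Of 10 listed, 8 were found and 6 tested, of which 3 rose, 1 fell and 2 were not called (Acp5 and Mmp9). Oscar, a costimulatory receptor of osteoclast precursors and other myeloid cells, went from 1.03 and 1.74 TPM in PBS 1 and PBS 2 to 65.4 and 85.1 in AdMSC 1 and SyMSC 1 (log2 change 5.003, SE 0.21, adjusted p = 0.000182). The integrin gene Itgb3 rose (1.5002), but Ctsk, the collagen-cutting protease of osteoclasts that fibroblasts also make, fell from 572 and 477 TPM to 95.8 and 60.2 (-2.77, SE 0.24, adjusted p = 0.000701). Nfatc1, the transcription factor that RANK switches on, was the other gene that rose (0.67). Dcstamp, needed for osteoclast fusion, was listed at 0 in both PBS libraries and at 0.07 and 0.59 TPM after injection, and like Atp6v0d2 was below the filter. Family genes that the naming rule does not reach were also counted: of 6, Relt rose (2.16), Edar (-1.41), Ngfr (-1.11) and Eda (-0.80) fell, Eda not without AdMSC 1 (adjusted p = 0.069), SyMSC 1 (adjusted p = 0.073) or PBS 1 (adjusted p = 0.0545), and Cd70 and Eda2r were below the filter. Edar, Ngfr and Eda passed the filter through the PBS libraries alone and so had to lie lower after injection, which leaves their count as a description. Relt stood at 17.8 and 18.95 TPM against 3.82 and 2.89. With an added 0.1 the log2 changes became -2.34 for Edar, -1.99 for Ngfr and -1.49 for Eda.

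**Figure D4:**
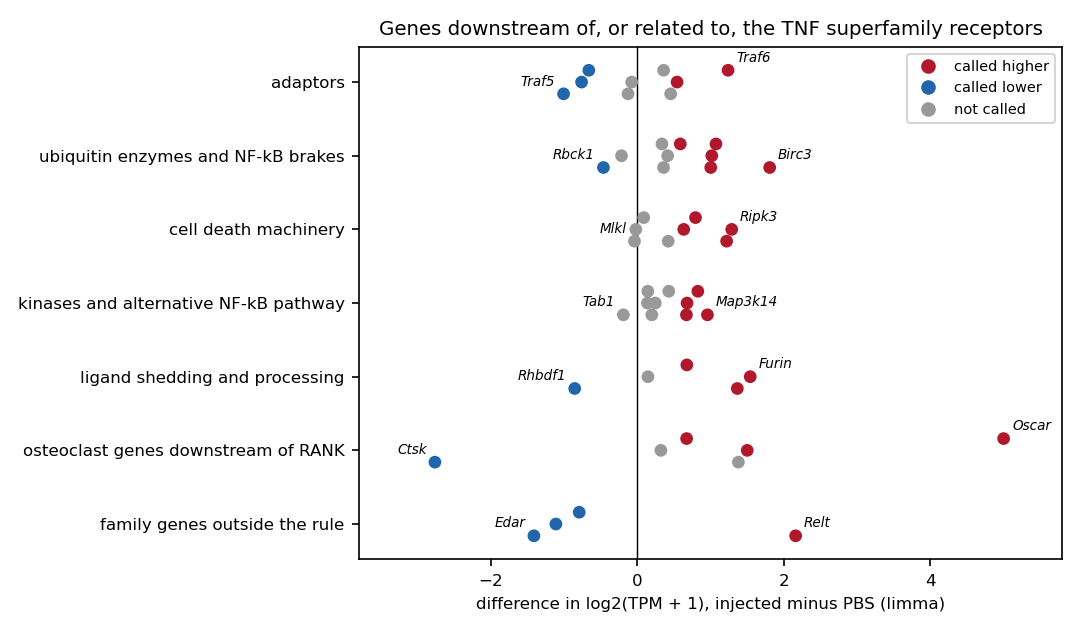
Limma differences in log2(TPM + 1), injected minus PBS, of the tested genes in 7 lists related to the receptors, 1 point per gene, coloured by call, with the lowest and highest gene of each list named. Most called genes of the ubiquitin, death and kinase lists lie to the right of 0, and the osteoclast list runs from Ctsk at -2.77 to Oscar at 5.003.

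Markers of several cell types moved with these results. Between 12582 and 13155 genes reached 1 TPM per library, and markers of synovial fibroblasts were present in all of them, with summed levels of 7293 to 10954 TPM after cell injection and 17909 to 22738 with PBS (0 of 6 higher, 4 lower). Neutrophil markers summed to 2277 and 3990 TPM after injection against 222.5 and 86.8 with PBS (5 of 6 higher, but 1 of 6 without SyMSC 1 and 2 of 6 without AdMSC 1). Markers of monocytes and macrophages summed to 2744 and 2692 TPM against 815 and 910.2 (5 of 6 higher), and those of T and NK cells to 336 and 385 TPM against 199.9 and 233 (4 of 6 higher, Klrd1 below the filter, and Cd4 lower, though not without PBS 2). Those of dendritic cells summed to 32.5 and 66.2 against 14.99 and 10.4 TPM (2 of 6 higher, 1 lower, with 1 higher when any 1 library was left out). Endothelial markers moved the other way, to 235 and 195 TPM from 579 and 641 (5 of 6 lower), as did mural markers, to 426 and 292 TPM from 1447 and 1735 (6 of 6 lower). In the T and NK sums Cd4 held 118.6 and 125 TPM after injection and 174 and 205 TPM with PBS. Cd8a held 109 and 126 TPM after injection against 4.19 and 4.72 with PBS. In the same list Cd3e (log2 change 0.84) lost its call without SyMSC 1 (0.73) or PBS 1 (0.63). None of the markers in these 7 lists was listed at 0 in any library. Skeletal muscle markers summed to 113.5 and 157 TPM in AdMSC 1 and SyMSC 1 against 1709.9 and 585 TPM in PBS 1 and PBS 2 (2 of 6 lower, and 1 to 6 with 1 library left out: 1 without AdMSC 1 or SyMSC 1, 5 without PBS 1 and 6 without PBS 2). Adipocyte markers summed to 248 and 286 TPM against 556 and 1520.1 (2 of 6 lower, 0 without AdMSC 1 or SyMSC 1, 5 without PBS 1 and 1 without PBS 2). Mast cell markers summed to 31.2 and 13.3 TPM against 54.3 and 65.98 (2 of 6 lower, 4 without AdMSC 1 and 1 without PBS 2), with Mcpt1 listed at 0 in all libraries but PBS 1. Erythroid markers summed to between 5314 TPM in AdMSC 1 and 21723 TPM in PBS 1, with 0 of 6 called. The part of these shifts in the changes of Ltb, Tnfrsf1b, Tnfrsf18, Tnfrsf21, Tnfsf10 and the other members was not tested.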

How the data were processed

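Messenger RNA was measured in 4 libraries of rat synovium: 1 AdMSC, 1 SyMSC and 2 PBS. Groups follow the treatment label. Per the labels' protocols, RNA was captured with oligo-dT and sequenced on a BGISEQ-500. The deposited values are TPM, scaled by the authors to the same sum in each library over the 17899 rat genes, per the file headers and values. HISAT2 2.0.4 and the build Rnor_6.0 are named in the submitters' processing notes, with no role given. The sources used here do not name a counting tool, or say how strand or human reads were handled. A rise of abundant genes lowers all other TPM values.

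Genes with 1 TPM or more in 2 or more libraries (13371) were tested as log2(TPM + 1), which understates changes of low genes, in R 4.3.3 with limma 3.58.1 (moderated by eBayes, trend and robust options on, 2 residual degrees of freedom, Benjamini-Hochberg adjustment over all tested genes), injected against PBS. The fit was tested on simulated data. Group values are given by library. A repeated symbol stayed with its most abundant row, and 0 sample columns were left unused. All 38 members were found by gene ID in RefSeq's GRCr8 table, which was used for neighbours, and 28 had a promoter window. Every tested member is named, and up to 3 genes of each related list: those called with the largest change. Tank, Traf1, Birc2, Rbck1, Ripk1, Nfkb2, Relb, Acp5, Mmp9, Nfatc1, Dcstamp, Atp6v0d2, Adam10, Adam17, Eda, Cd70 and Eda2r were named after their values were seen. Alternatives were other scalings, no filter, an added 0.1, the title word as a block, each library left out, limma without trend and robust options, and other ratios, floors and PBS libraries for single-library comparisons. Members and lists were chosen with earlier results of these data known.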

Additional observations from a re-analysis of the deposited data

Results flagged for a closer look

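For 6 of the 30 tested members the difference from PBS pointed in opposite directions in the AdMSC and SyMSC libraries, each set against the PBS library of its title word. Among all tested genes 13.3% did so. With 1 library on each side the difference between cell sources was not tested. On the log2(TPM + 1) scale, AdMSC 1 minus PBS 1 and SyMSC 1 minus PBS 2 were -1.26 and 0.05 for Tnf, -0.50 and 0.99 for Cd27, and -0.56 and 0.79 for Tnfrsf14. They were 0.22 and -0.53 for Tnfsf15, 0.28 and -0.12 for Tnfsf12, and -0.07 and 0.29 for Fas. None of these genes was called between injected and PBS libraries, and Tnf, Cd27, Tnfrsf14 and Tnfsf15 lay at or below 3.26 TPM in every library.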

How the results depend on the processing

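Of the 16 called members, 12 were called under all 10 alternatives, and Cd40, Lta, Tnfrsf9 and Tnfsf13b lost their call only when 1 library was left out. Among the 12, Tnfsf8, Tnfsf11, Tnfsf14 and Tnfrsf18 passed the filter through the injected libraries alone. They had to lie higher there, so their part of that count is descriptive. With 1 library left out, the lone library of a group is assumed to vary like the others. The count called higher was 14 with either other scaling and 16 with no filter. There Faslg and Tnfsf18 joined, at 0.73 TPM or less in every library. The count called lower was 4 with median-ratio scaling and with upper-quartile scaling, where Tnfrsf10b and Tnfrsf11b joined. Upper-quartile scaling also moved the median log2 change of all tested genes from 0.0009 to -0.079. With the title word as a replicate block 15 members were called higher and 3 lower, and no member's call was lost. Tnfrsf4 (limma adjusted p = 0.0126) and Tnfrsf11b (adjusted p = 0.0466) joined there. No share of all genes under the same setting is set beside these counts, so they are descriptive. The correlation of same-title deviations over genes was 0.117, and with 2 such pairs the words alone do not establish a pairing. Changes that turned sign belonged to members that were not called. With 1 library left out the log2 change ran from -0.26 to 0.74 for Cd27, -0.15 to 0.38 for Fas, -1.52 to 0.30 for Tnf, -0.048 to 0.47 for Tnfrsf12a, -0.35 to 0.57 for Tnfrsf14, -0.097 to 0.26 for Tnfsf12 and -0.43 to 0.13 for Tnfsf15. Under upper-quartile scaling Tnfsf12 was -0.0048. With a ratio of 1.5 in place of 2, members past it were 2 lower for AdMSC 1 against PBS 1, 8 higher and 3 lower for SyMSC 1 against PBS 2, and 3 higher for SyMSC 1 against AdMSC 1. With a floor of 1 TPM they were 2 lower, 8 higher and 1 higher for those same comparisons. These counts too have no share of all genes beside them and are descriptive. Skeletal muscle markers called lower were 4 of 6 with either other scaling, no filter or an added 0.1 and 5 without trend and robust options, and adipocyte markers 1 of 6 with no filter or without trend and robust options. Dendritic cell markers called higher were 1 of 6 with an added 0.1 or the block. From TPM + 1, the mean ratio of Tnfsf11 to Tnfrsf11b was 0.277 after injection and 0.0682 with PBS. The cause of these shifts was not tested. TPM keeps no depth, so the precision of members near 1 TPM is unknown.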
